A study of Mus musculus with 154 samples.

Results

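The genes described here are 9 that make, carry or control bile acids in the liver, taken by their symbols from the 13289 genes of the table, in which all 9 were found. They were Cyp7a1, Cyp8b1, Cyp27a1, Slc27a5 and Baat (synthesis and conjugation), Slc10a1 and Abcb11 (uptake and export), and Nr0b2 and Nr1h4 (regulation). Liver RNA was sequenced from male mice of 24 strains, killed at 5 weeks of age after an overnight fast. Chromosome substitution strains (CSSs) carry a chromosome of the inbred strain A/J on the background of B6, and here each substitution was heterozygous because the mice were F1 offspring. The control strain B6 had 20 mice. The 8 single CSSs (63 mice) were (B6 X B6.A3)F1, (B6 X B6.A6)F1, (B6 X B6.A14)F1, (B6 X B6.A17)F1, (B6.A4 X B6)F1, (B6.A5 X B6)F1, (B6.A8 X B6)F1 and (B6.A10 X B6)F1, with 8 mice each except (B6.A5 X B6)F1 with 7. The first parent named is the sire. The 15 double CSSs (71 mice, 3 to 6 per strain) came from sires with chromosome 4, 5, 8 or 10 of A/J and dams with chromosome 3, 6, 14 or 17, as in (B6.A8 X B6.A14)F1. In what follows A8 stands for (B6.A8 X B6)F1 and for its main effect, which is the fitted log2 fold change from B6. A14:A8 stands for (B6.A8 X B6.A14)F1 and for its interaction, which is the log2 departure of that strain from the level that its main effects, added together, would give. The other strains are written in the same way. No treatment separated the strains. A substituted chromosome carries many A/J variants at once, so that no effect here is tied to a single gene. The labels do not say which mice were littermates. The p-values of effects rest on the spread between mice within strains, estimated jointly over all 24 strains after covariates were fitted. They do not measure the spread of the mice of a given strain on its own. Replicate numbers follow the order of the samples and only name a mouse.

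Bile acids are made from cholesterol in hepatocytes. The classic pathway starts with CYP7A1, its rate-limiting enzyme, and CYP8B1 steers the product towards cholic acid, whereas CYP27A1 oxidises the side chain and also starts an alternative pathway. SLC27A5 activates bile acids with coenzyme A and BAAT joins them to taurine or glycine. SLC10A1 (NTCP) takes conjugated bile acids up from portal blood, and ABCB11 (the bile salt export pump) secretes them into bile. The nuclear receptor FXR, encoded by Nr1h4, senses bile acids and induces Abcb11 and Nr0b2, which encodes the repressor SHP. SHP is known to reduce transcription of Cyp7a1 and Cyp8b1 through the factors NR5A2 (LRH-1) and HNF4A, and signalling from the intestine through FGFR4 and its partner KLB lowers Cyp7a1 as well.

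Between 4638701 and 30465477 reads were counted per mouse, with a median of 16116424. In 1 mouse labelled (B6.A4 X B6.A14)F1 (replicate 3), the sum of 4 Y-linked genes was 2.94 CPM against 228 to 432 CPM in the other mice, although the paper states that only males were sequenced. CPM is the count relative to the normalised library size. That mouse was kept, and calls that were lost without it are named below. The 6 hepatocyte markers (Alb, Apoa1, Ttr, Trf, Serpina1c and Tat) summed to between 43615 and 133807 CPM, and the lists for cholangiocytes, macrophages, endothelial cells, stellate cells and blood to at most 691.1 CPM each. The cholangiocyte marker Krt19 and all 4 pancreas markers had no row in the table. In whole liver, fewer cells of a type and less RNA per cell cannot be told apart.

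In B6, the level per kilobase of exon was highest for Slc27a5, at 343 ± 26.9 CPM per kb (SD, n = 20). Slc10a1 followed with 255.4 ± 38.7 and Cyp8b1 with 249 ± 81.9 CPM per kb, which differ by less than either SD. Baat (166 ± 12.9) and Cyp27a1 (156 ± 27.6) also lay within an SD of each other on this scale. Cyp7a1 had 97.4 ± 46.1 and Abcb11 had 82.7 ± 17.2 CPM per kb, while the regulators were lowest, with 52.7 ± 9 for Nr1h4 and 19.3 ± 9.06 for Nr0b2. The spread differed as well. The coefficient of variation of CPM among the 20 B6 mice was 47.3% for Cyp7a1 and 46.9% for Nr0b2, 32.9% for Cyp8b1, and 7.79% for Baat and 7.85% for Slc27a5. Over all mice, Nr0b2 ranged 29.5-fold (1.61 to 47.7 CPM) and Cyp7a1 9.44-fold (132.1 to 1247 CPM), against 1.81-fold for Baat (225 to 409 CPM). Each gene had at least 1108 reads in every mouse, except Nr1h4 with at least 452 and Nr0b2 with at least 27 (median 299), so that counting error bears most on Nr0b2.

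**Figure D1:**
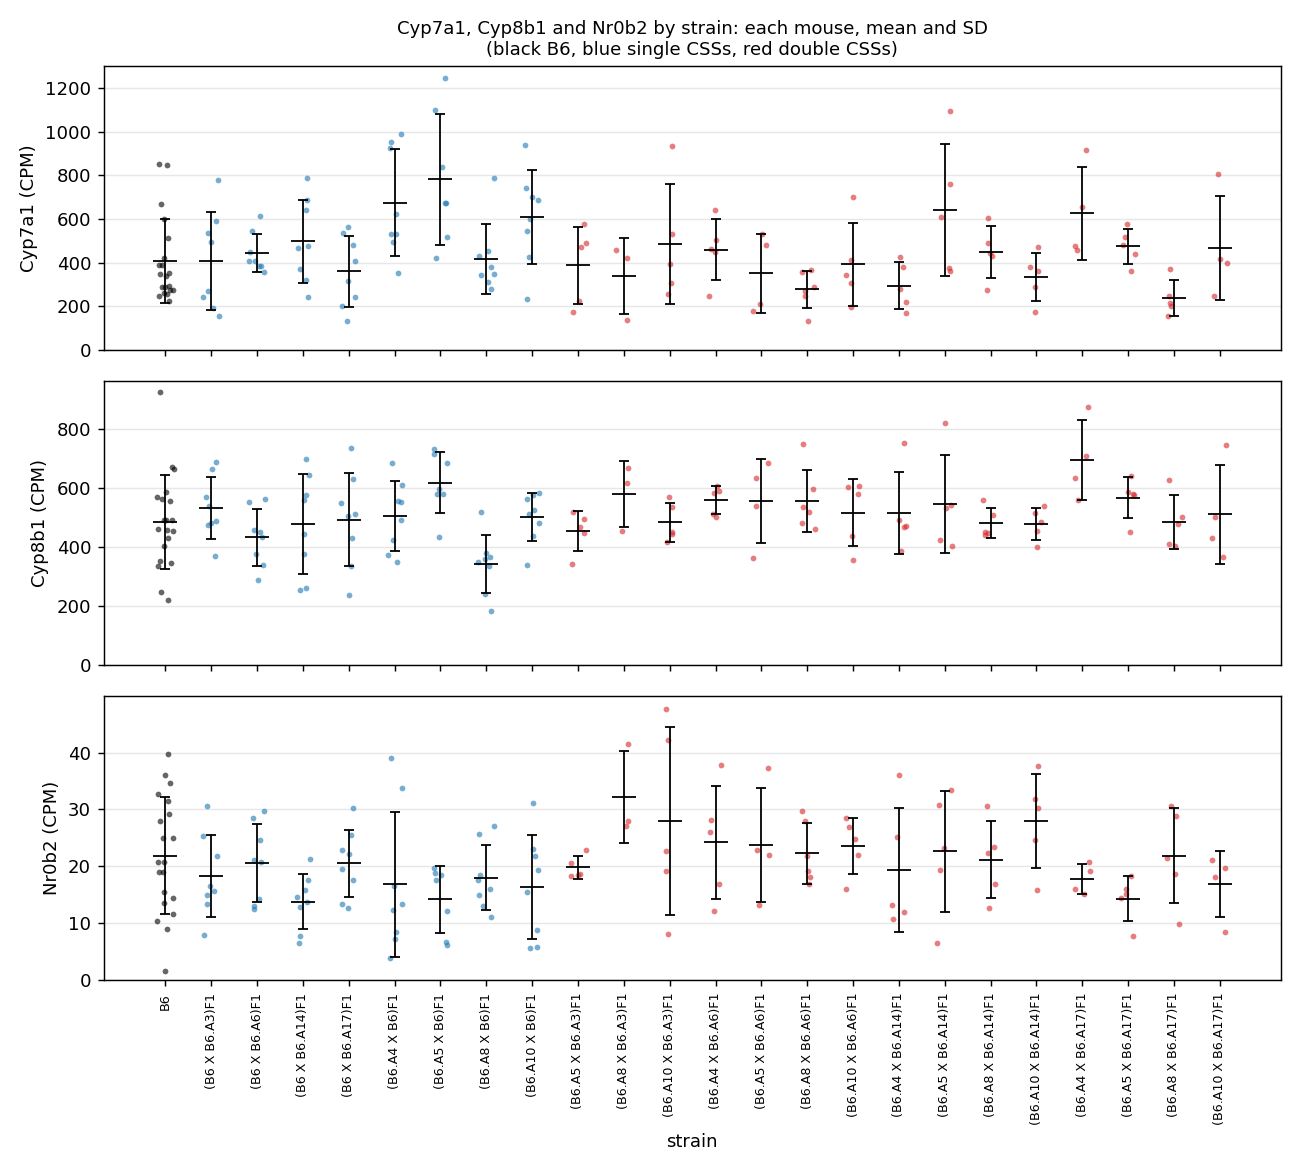
Level of Cyp7a1, Cyp8b1 and Nr0b2 (y axes, CPM from 0) in each mouse of the 24 strains (x axis), with the strain mean (dash) and SD (bars), in black for B6, blue for single CSSs and red for double CSSs. Cyp7a1 is highest on average in (B6.A5 X B6)F1 (782 CPM), and 1 B6 mouse has Nr0b2 at 1.61 CPM.

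When the 24 strain means of a gene were put in order, neighbouring strains rarely differed by more than their spread. Of the 23 neighbouring pairs per gene, 0 were separated by more than the larger SD of the pair for Cyp7a1, Cyp8b1, Cyp27a1, Slc10a1, Nr0b2, Nr1h4 and Baat. For Slc27a5, A14 (619.9 ± 159.8 CPM, SD, n = 8) lay 175 CPM below A6:A10, the next strain, with only A8 lower than A14. For Abcb11, A3:A5 (559.2 ± 73.3 CPM, SD, n = 5) lay 74.5 CPM above A6:A5. The ends of the order were further apart. The highest strain mean was 3.27 times the lowest for Cyp7a1 (A5 against A17:A8), 2.34 times for Nr0b2 (A3:A8 against A14), 2.03 times for Cyp8b1 (A17:A4 against A8) and 1.24 times for Baat (A3:A5 against A17:A10). A8 had the lowest mean of the 24 strains for Cyp8b1, Cyp27a1, Abcb11, Slc10a1 and Slc27a5. The strain means took up 57.9% of the variance of log2 CPM for Slc27a5 and 46.4% for Slc10a1, but 34.3% for Cyp7a1 and 17.6% for Nr0b2. These shares are not corrected for fitting 24 means, which take up some variance even where strains do not differ. For Nr0b2 the joint test of strains, given below, did not pass.

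To ask which genes differed among strains at all, the 23 strain coefficients of the model were tested jointly by the quasi-likelihood F-test of edgeR, with p-values adjusted by Benjamini-Hochberg. Of the 9 genes, 7 passed an FDR of 0.05, as did 51.4% of all genes. The adjusted p was smallest for Slc27a5 (2.01e-09) and Slc10a1 (2.1e-06), followed by Cyp7a1 (2.27e-05), Cyp27a1 (0.00328), Cyp8b1 (0.0137), Abcb11 (0.0284) and Baat (0.0383). Nr0b2 (adjusted p = 0.0719) and Nr1h4 (adjusted p = 0.0819) did not pass. The 15 interactions tested jointly passed for 3 genes, Slc27a5 (6.7e-08), Slc10a1 (4.9e-06) and Cyp7a1 (0.0259), where 27.4% of all genes did.

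Tested singly, 11 of the 72 main effects passed (15.3%, against 11.1% of all genes and chromosomes), 5 higher and 6 lower than B6. Of the 135 interactions 10 passed (7.41%, against 5.96% of all), and each of the 10 was positive. Both shares lie close to the background. In all 10 the double CSS was nearer to B6 than the sum of its main effects, which was also so for 94.6% of the called interactions of all genes. The main effects were in 5 genes (Slc10a1, Slc27a5, Cyp7a1, Cyp27a1 and Nr0b2) and the interactions in 3 (Slc10a1, Slc27a5 and Nr0b2). Cyp8b1, Abcb11, Nr1h4 and Baat had no single effect that passed. All main effects share the same 20 B6 mice, and interactions also share single CSSs, so that the effects of a gene are not independent of each other.

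**Figure D2:**
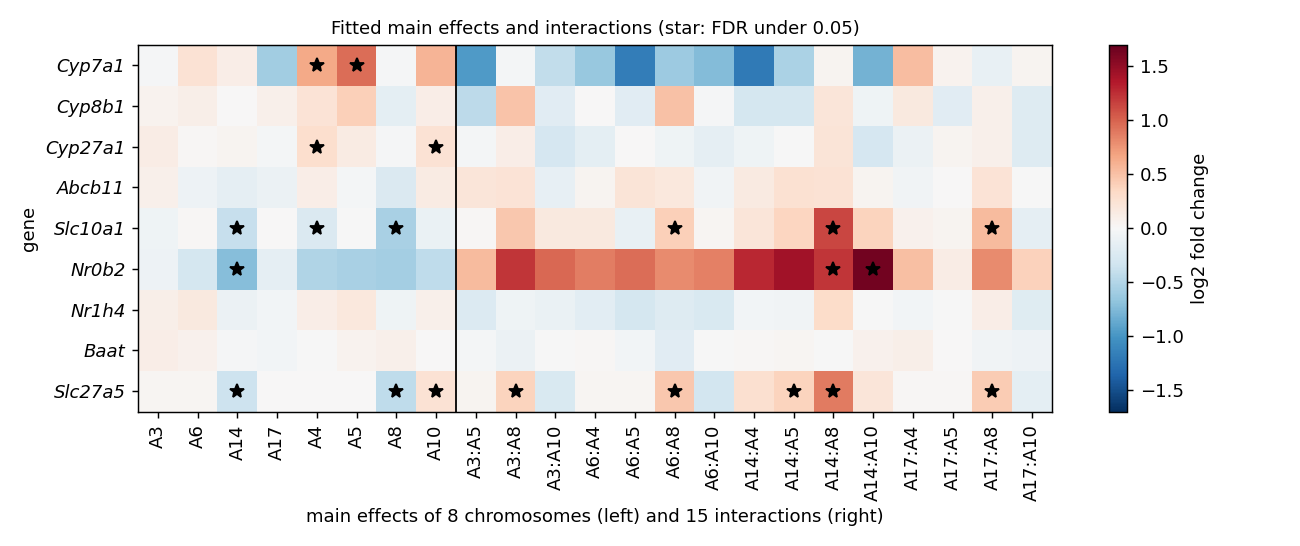
Fitted log2 fold changes (colour) of the 9 genes (rows) for 8 main effects and 15 interactions (columns, separated by a line), with a star where the FDR was under 0.05. The 10 starred interactions lie in Slc10a1, Slc27a5 and Nr0b2, and so do 7 of the 11 starred main effects.

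Among the synthesis enzymes, Cyp7a1 rose in A5 and A4. Cyp7a1 (ENSMUSG00000028240, chr4:6265612-6275633, minus strand, all positions in mm10) had 223 to 852 CPM (median 344) in the B6 mice. In A5 it had 420.9 to 1247 CPM (median 674.2), and all 7 mice were above the B6 median, although the ranges overlap. The log2 fold change was 0.95 (SE 0.22, edgeR adjusted p = 0.029), in a strain where 0.452% of all genes were called higher. In A4 it had 352 to 989 CPM (median 578), again with all 8 mice above the B6 median. The log2 fold change there was 0.65 (SE 0.23, edgeR adjusted p = 0.025), where 7.6% of all genes were called higher. Cyp7a1 itself lies on chromosome 4, so that A4 mice carry an A/J copy of the gene. Reads that did not align to the B6 genome were aligned to an A/J genome by the authors, and the part of this step in the A4 value was not tested. A4, in which Cyp7a1, Cyp27a1 and Slc10a1 were called, also had the most calls of any main effect among 12 clock genes, with Cry1 and Clock higher and Nr1d1, Tef, Per2 and Dbp lower, and 2 of 4 macrophage markers called higher. The part of these in the A4 values was not tested. Without surrogate variables in the model (covariates estimated from the counts to absorb unknown sources of variation), the A5 change was as large (0.94) but its adjusted p was 0.107.

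Cyp7a1 also had large fitted values in A10 and A17 that missed the threshold. They were 0.58 (SE 0.24) in A10 and −0.58 (SE 0.24) in A17 on the log2 scale, with adjusted p values of 0.119 and 0.16 in edgeR. No single interaction passed for Cyp7a1, although the 15 did jointly. Of the 15, 11 were negative, with a median of −0.54. The most negative was A14:A4 at −1.20 (SE 0.41, edgeR adjusted p = 0.0581). In A14:A4 the 5 mice had 427, 219, 278, 382 and 172 CPM, all below the 796 CPM that adding both single-CSS log2 differences would give. This interaction passed with 0 or 10 surrogate variables (adjusted p = 0.0164 and 0.0381) and with a stricter filter on low counts (0.025). Its cross contains the mouse with few Y-linked counts, and the interaction did not pass without that mouse. Nor did it pass with DESeq2's size factors, in DESeq2's Wald test, with legacy=FALSE or with adjustment over all genes. In A3:A5 (388 ± 178 CPM, SD, n = 5) and A6:A5 (351 ± 182 CPM, SD, n = 4) the mean was below that of A5 itself (782 ± 301 CPM, SD, n = 7). Their interactions of −0.97 (SE 0.39) and −1.18 (SE 0.41) did not pass (edgeR adjusted p = 0.9995 and 0.851).

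Cyp8b1 (ENSMUSG00000050445, chr9:121914356-121916305, minus strand), the sterol 12-alpha-hydroxylase, had 486 ± 159.8 CPM (SD, n = 20) in B6. Its largest fitted main effect was in A5, where the 7 mice had 435 to 734 CPM (median 596.5). The log2 fold change there was 0.40 (SE 0.13, edgeR adjusted p = 0.134), which did not pass. The lowest mean was in A8, at 342 ± 99.3 CPM (SD, n = 8), where 7 of 8 mice were below the B6 median. In the model its A8 main effect was −0.16 (SE 0.14, edgeR adjusted p = 0.397), whereas without surrogate variables it was −0.51 with an adjusted p of 0.00471. In A6:A8 all 6 mice (462 to 749 CPM) exceeded the additive level of 301 CPM, but the interaction of 0.50 (SE 0.21, edgeR adjusted p = 0.0641) missed the threshold, which it passed without surrogate variables (adjusted p = 0.00327).

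Cyp27a1 (ENSMUSG00000026170, chr1:74713574-74737892, plus strand), a mitochondrial sterol hydroxylase, rose by small amounts in A4 and A10. In B6 it had 248 to 515 CPM (median 336). A4 mice had 284.9 to 463 CPM (median 395.4), with 6 of 8 above the B6 median and a log2 fold change of 0.29 (SE 0.08, edgeR adjusted p = 0.00676). A10 mice had 241.3 to 461 CPM (median 351), with 5 of 8 above the B6 median and a log2 fold change of 0.24 (SE 0.08, edgeR adjusted p = 0.0432), where 3.66% of all genes were called higher. Both depended on the surrogate variables, since without them the changes were 0.17 and 0.09, with adjusted p values of 0.201 and 0.553. With 10 of them the A4 change had an adjusted p of 0.078. In A8, all 8 mice (224.2 to 333 CPM) were below the B6 median, but the fitted main effect was −0.02 (SE 0.08), against −0.32 (adjusted p = 0.00211) without surrogate variables. The first of the 5 surrogate variables had 39.00% of its variance between strains, and the others 11.97% to 19.6%.

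Baat (ENSMUSG00000039653, chr4:49489422-49506557, minus strand), the amino acid conjugating enzyme, was the least variable of the 9. Its main effects ranged from −0.05 in A17 to 0.12 in A3, and its interactions from −0.19 in A6:A8 to 0.10. The A6:A8 value (−0.19, SE 0.08, edgeR adjusted p = 0.0589) missed the threshold. In that cross the 6 mice had 276 to 304 CPM, all below the additive level of 340.2 CPM and within the B6 range of 269 to 362 CPM. The interaction passed in DESeq2's Wald test (adjusted p = 0.0393), with DESeq2's size factors (0.0441), with a stricter filter on low counts (0.0483) and without the mouse with few Y-linked counts. It did not pass with 0 or 10 surrogate variables, with legacy=FALSE or with adjustment over all genes.

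Slc27a5 and Slc10a1 carried the clearest strain differences of the set. Slc27a5 (ENSMUSG00000030382, chr7:12988346-12998192, minus strand) encodes bile acyl-CoA synthetase and lies on none of the substituted chromosomes. The B6 mice had 713.1 to 982 CPM (median 830.1). In A8 the 8 mice had 389.7 to 701.3 CPM (median 512), and their range did not overlap that of B6. The log2 fold change was −0.43 (SE 0.07, edgeR adjusted p = 5.26e-07), in a strain where 16.7% of all genes were called lower. In A14 the mice were more spread, at 415 to 850.2 CPM (median 625.2), with 7 of 8 below the B6 median. There the log2 fold change was −0.35 (SE 0.07, edgeR adjusted p = 2.03e-05), with 12.6% of all genes called lower. A10 went the other way, since all 8 mice (847 to 1056 CPM) lay above the B6 median. Its log2 fold change was 0.24 (SE 0.07, edgeR adjusted p = 0.0138), but 0.15 (adjusted p = 0.19) without surrogate variables.

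Slc10a1 (ENSMUSG00000021135, chr12:80953183-80968705, minus strand), the sodium-dependent uptake carrier, fell in A8, A14 and A4. B6 mice had 419.6 to 722 CPM (median 558.9). The 8 A8 mice had 257 to 426 CPM (median 348), so that only the edges of the ranges overlap. The log2 fold change was −0.55 (SE 0.09, edgeR adjusted p = 1.84e-06). In A14 the values were 251 to 652 CPM (median 415) and the log2 fold change −0.39 (SE 0.09, edgeR adjusted p = 0.000441), which was −0.12 (adjusted p = 0.426) with 10 surrogate variables. In A4, Slc10a1 had 275 to 585.8 CPM (median 469.5), where 5.88% of all genes were called lower. The A4 log2 fold change was −0.25 (SE 0.09, edgeR adjusted p = 0.0415), and its adjusted p became 0.0508 without the mouse with few Y-linked counts, 0.0563 without surrogate variables and 0.7 with 10 of them. The A4 mouse at 275 CPM, replicate 1, stood apart from the others of its strain (412.2 to 585.8 CPM). No fit without that mouse was run.

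The double CSSs that carried chromosome 8 had both genes nearer to B6 than to A8. In A14:A8 the 5 mice had 751, 707.9, 681, 538 and 567 CPM of Slc10a1, and adding both single-CSS log2 differences would give 253 CPM. All 5 lay above that level and above every A8 mouse. The interaction was 1.13 (SE 0.15, edgeR adjusted p = 6.34e-10). For Slc27a5 the same 5 mice had 902, 878, 863, 834 and 879 CPM against an additive level of 374.4 CPM, an interaction of 0.88 (SE 0.11, edgeR adjusted p = 1.14e-10). Against B6 itself this double CSS differed by 0.19 (SE 0.10) for Slc10a1 and 0.10 (SE 0.07) for Slc27a5 on the log2 scale. In this cross 18.1% of all genes were called in the positive direction. With 10 surrogate variables both interactions were smaller but still passed, at 0.59 (adjusted p = 0.00191) and 0.65 (adjusted p = 3.81e-05).

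**Figure D3:**
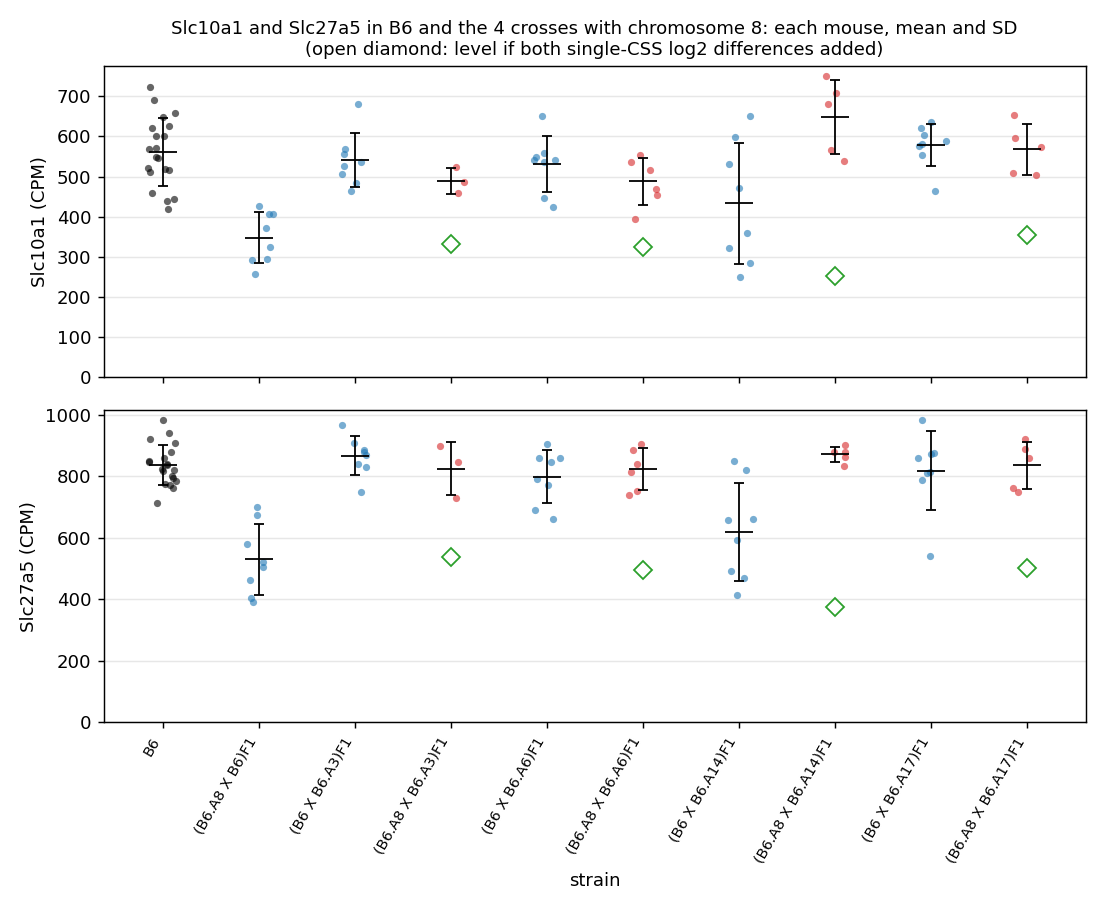
Slc10a1 and Slc27a5 (y axes, CPM from 0) in each mouse of B6, A8, the 4 single CSSs crossed with it and the 4 double CSSs (x axis), with strain mean (dash), SD (bars) and, for double CSSs, the additive level (open diamond). A8 and A14 lie low, and in each of the 4 double CSSs every mouse lies above the diamond, which for A14:A8 is at 253 and 374.4 CPM.

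The other crosses with chromosome 8 moved the same way by less. In A17:A8, Slc10a1 had 508, 505, 596.4, 654 and 573 CPM in 5 mice, an interaction of 0.53 (SE 0.15, edgeR adjusted p = 0.0144). Slc27a5 in these mice had 748.4, 763, 888, 920.3 and 859 CPM and an interaction of 0.43 (SE 0.11, edgeR adjusted p = 0.00756), where 4.95% of all genes were called positive. In A6:A8, 6 mice had 396 to 555 CPM of Slc10a1 with an interaction of 0.41 (SE 0.14, edgeR adjusted p = 0.0242). Slc27a5 had 739.9 to 906 CPM there and an interaction of 0.46 (SE 0.11, edgeR adjusted p = 0.000431), with 13.4% of all genes called positive. All these mice lay above their additive levels, which were 355 and 503 CPM in A17:A8 and 325 and 494 CPM in A6:A8. In A3:A8, the 3 mice had 523, 458 and 487 CPM of Slc10a1 and 730.8, 899 and 847 CPM of Slc27a5. Slc27a5 passed in this cross, with 0.37 (SE 0.12, edgeR adjusted p = 0.037) and 4.91% of all genes called positive, while Slc10a1 had 0.46 (SE 0.16, edgeR adjusted p = 0.0576). Slc27a5 also had an interaction outside the chromosome 8 crosses, in A14:A5. There the 5 mice had 864, 970.3, 828.9, 843 and 1007 CPM, an interaction of 0.38 (SE 0.11, edgeR adjusted p = 0.0312) where 2.49% of all genes were called positive.

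Not all of these calls were equally firm. With 10 surrogate variables the A17:A8 and A6:A8 interactions did not pass, with adjusted p values of 0.573 and 0.355 in A17:A8 and 0.971 and 0.168 in A6:A8 for Slc10a1 and Slc27a5. The Slc27a5 interactions of A3:A8 and A14:A5 did not pass either (adjusted p = 0.477 and 0.187). With the stricter count filter, Slc27a5 in A3:A8 (0.121), Slc27a5 in A14:A5 (0.0501) and Slc10a1 in A6:A8 (0.0926) had adjusted p values above 0.05. The A3:A8 call for Slc27a5 was lost without replicate 2 (adjusted p = 0.103) or replicate 3 (adjusted p = 0.205) of that strain and without the mouse with few Y-linked counts (adjusted p = 0.0649). The A14:A5 call was lost without replicate 1, 2 or 5 (adjusted p = 0.0525, 0.0625 and 0.0625) and without the same mouse (adjusted p = 0.0513). The A6:A8 call for Slc10a1 was lost without replicate 5 (adjusted p = 0.0526) or 6 (adjusted p = 0.0643).

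Hepatocyte markers moved with both genes. Their sum was 43615 to 92359 CPM in A8 and 50108 to 106284 in A14, against 80767 to 133807 in B6 and 77677 to 103348 in A14:A8. Of the 6 markers, 4 were called lower in A8, 2 lower in A14 and 2 positive in the A14:A8 interaction. Over all mice and within strains, the log2 sum had a Pearson's r of 0.65 with Slc10a1 and 0.57 with Slc27a5, against 0.14 with Cyp7a1 and −0.04 with Nr0b2. The 4 macrophage markers had an r of −0.33 and −0.40 with Slc10a1 and Slc27a5, and their median sum was 308 CPM in A8, 327 in A14, 256 in A14:A8 and 274 in B6. Of these 4, 2 were called higher in A14 and 2 negative in the A14:A8 interaction. The 4 endothelial markers had an r of −0.29 and −0.24, with a median sum of 275 CPM in A14, 233 in A14:A8 and 236 in B6, and also had 2 higher calls in A14 and 2 negative ones in A14:A8. Of 12 clock genes, 2 were called in A8, 4 in A14, 6 in A4 and 7 in the A14:A8 interaction, and Per3 was the closest to Slc10a1 within strains (r = 0.48). The labels give no hour of collection. The part of these in the strain differences was not tested.

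Abcb11 (ENSMUSG00000027048, chr2:69238282-69342616, minus strand), the export pump, had 426 ± 88.7 CPM (SD, n = 20) in B6. Its annotated span overlaps that of 1 other gene of the table, Gm13613. The A8 mice had the lowest mean, with 243 to 481 CPM (median 291) and 6 of 8 below the B6 median. The A8 main effect of −0.25 (SE 0.10, edgeR adjusted p = 0.0508) just missed the threshold, and it passed with 0 surrogate variables (−0.35, adjusted p = 0.00316) and with 10 (−0.37, adjusted p = 0.010). In A14 all 8 mice (273 to 416 CPM) were below the B6 median, with a fitted log2 fold change of −0.16 (SE 0.09, edgeR adjusted p = 0.222). Its interactions ranged from −0.14 to 0.26 and did not pass. With 0 or 10 surrogate variables the A14 main effect (adjusted p = 0.0237 and 0.0388) and the A14:A8 interaction of Abcb11 (adjusted p = 0.028 and 0.03) passed.

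Of the regulators, Nr0b2 (ENSMUSG00000037583, chr4:133553376-133556536, plus strand) was the lower and more variable. B6 mice had 1.61 to 39.8 CPM (median 20.8). A14 mice had 6.47 to 21.3 CPM (median 14.2), and 7 of 8 were below the B6 median. The log2 fold change was −0.72 (SE 0.27, edgeR adjusted p = 0.0436). This call was lost without surrogate variables (adjusted p = 0.0651), with 10 (0.227), in DESeq2's Wald test (0.0505), with the stricter count filter (0.123) and without the mouse with few Y-linked counts (0.0519). In all 8 single CSSs the fitted value was below 0, from −0.72 in A14 to −0.08 in A3, although only A14 passed and all share the B6 mice. In all 15 double CSSs the interaction was above 0, with a median of 0.88, and 2 passed. All 15 are measured from the same B6 mice and share single CSSs, so that their common sign is not 15 separate results. Tested jointly, the interactions of Nr0b2 did not pass (edgeR adjusted p = 0.148). In A14:A10 the 5 mice had 31.8, 15.8, 24.6, 37.7 and 30.3 CPM against an additive level of 9.79 CPM, all above it. The interaction was 1.64 (SE 0.47, edgeR adjusted p = 0.0281), where 2.45% of all genes were called positive, and without replicate 4 of that strain its adjusted p was 0.0718. In A14:A8 the mice had 22.3, 12.6, 30.6, 17 and 23.5 CPM against 12.13 CPM, an interaction of 1.21 (SE 0.46, edgeR adjusted p = 0.034). Without replicate 1 or 3 its adjusted p was 0.0654 or 0.0841, and with 0 or 10 surrogate variables it was 0.109 or 0.177. The A14:A10 interaction had an adjusted p of 0.208 with 10 surrogate variables, and with the stricter count filter both missed the threshold (0.0558 and 0.131). B6 replicate 4 was alone at 1.61 CPM, the next B6 mouse having 8.97 CPM.

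Nr1h4 (ENSMUSG00000047638, chr10:89454234-89533585, minus strand), which encodes FXR, had 121 ± 20.7 CPM (SD, n = 20) in B6. Its strain means ranged from 106 ± 10.7 CPM (SD, n = 6) in A6:A8 to 139 ± 14.9 CPM (SD, n = 7) in A5. The main effects lay between −0.10 and 0.18, the largest being in A5 (0.18, SE 0.08, edgeR adjusted p = 0.314), and in A10, which carries an A/J copy of the gene, the value was 0.09 (SE 0.08). The interactions lay between −0.30 and 0.31 and did not pass, but A14:A8 passed without surrogate variables (adjusted p = 0.0341) and without replicate 3 of that cross (adjusted p = 0.0468).

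The 250 bases before the annotated start of Cyp8b1, Nr0b2 and Abcb11 are shown because NR5A2, HNF4A and FXR are known to act on genes of this kind, and because these genes varied with or against each other across mice. They are RefSeq sequences of GRCm38.p6, read 5′ to 3′ on the strand of the gene, at chr9:121916306-121916555 (minus) for Cyp8b1, chr4:133553126-133553375 (plus) for Nr0b2 and chr2:69342617-69342866 (minus) for Abcb11. Capitals mark matches on either strand to the NR5A2 core CAAGGNCA, the HNF4 core CAAAGTCCA, the nuclear receptor element AGGTCA or a pair of such elements facing each other, GGNCA followed after 1 base by TGACCT.
Cyp8b1: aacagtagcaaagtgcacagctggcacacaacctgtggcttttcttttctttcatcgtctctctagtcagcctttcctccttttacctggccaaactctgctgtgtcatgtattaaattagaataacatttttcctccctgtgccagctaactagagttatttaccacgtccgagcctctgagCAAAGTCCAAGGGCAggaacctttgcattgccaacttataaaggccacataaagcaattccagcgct
Nr0b2: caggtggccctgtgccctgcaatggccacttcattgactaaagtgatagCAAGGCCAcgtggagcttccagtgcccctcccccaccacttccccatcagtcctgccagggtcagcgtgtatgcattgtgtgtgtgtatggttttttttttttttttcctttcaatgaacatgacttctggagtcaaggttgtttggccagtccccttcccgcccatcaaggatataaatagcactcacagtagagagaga
Abcb11: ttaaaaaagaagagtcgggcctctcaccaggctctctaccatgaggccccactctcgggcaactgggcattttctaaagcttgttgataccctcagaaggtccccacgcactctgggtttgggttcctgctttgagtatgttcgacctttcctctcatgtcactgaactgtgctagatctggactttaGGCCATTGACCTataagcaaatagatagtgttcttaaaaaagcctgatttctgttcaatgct
In Cyp8b1 the HNF4 core (67 to 59 bases before the start) runs into the NR5A2 core (60 to 53 bases before it). Nr0b2 holds the NR5A2 core 201 to 194 bases before its start. Abcb11 holds the facing pair 62 to 51 bases before its start, and the single element found there is part of it. Of 32851 mouse promoters of the same length, 5.53% held the NR5A2 core, 0.384% the HNF4 core, 14% the single element and 0.0791% the facing pair. A match describes the letters only. Promoter sequences were found for 6 of the 9 genes. Those printed are the ones that held the NR5A2 core, the HNF4 core or the facing pair. Cyp27a1 and promoter 1 of Slc10a1 held none of the motifs, and Nr1h4 and promoter 2 of Slc10a1 held only the single element.

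The question put to Nr0b2 was whether mice with more of this repressor's RNA had less Cyp7a1 and Cyp8b1 RNA. Across all mice of the 24 strains, log2 CPM of Nr0b2 and Cyp7a1 had a Pearson's r of −0.48 and a Spearman's rho of −0.43. Both had the smallest p that 100000 permutations can give (1e-05, adjusted over the 2 pairs 2e-05, two-sided). For Cyp8b1, r was −0.31 (permutation p = 0.00015) and rho −0.29 (permutation p = 0.00022), both the same after adjustment. After each strain's mean was subtracted, with permutation within strains, r was −0.44 for Cyp7a1 (permutation p = 1e-05) and −0.39 for Cyp8b1 (permutation p = 3e-05). The within-strain rho was −0.41 (permutation p = 1e-05) and −0.30 (permutation p = 0.00046). Leaving out the 2 mice farthest from the median of Nr0b2 gave a pooled r of −0.47 and −0.26 and a within-strain r of −0.42 and −0.32, with adjusted permutation p values of at most 0.00107. Both values of a point come from the same library. Within strains, the log2 total count had an r between −0.07 and 0.15 with the 9 genes.

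The relations were negative in most strains but not in all. Within single strains, r of Nr0b2 with Cyp7a1 was negative in 20 of 24 and ranged from −0.92 to 0.70. With Cyp8b1 it was negative in 18 of 24, from −0.80 to 0.73. Among the 10 strains with at least 6 mice, 9 and 8 had a negative r. In B6 alone (n = 20) r was −0.56 with Cyp7a1 (adjusted permutation p = 0.00936) and −0.62 with Cyp8b1 (adjusted permutation p = 0.00808), while rho was −0.41 and −0.48 (adjusted permutation p = 0.0722 for each). B6 replicate 4 had 1.61 CPM of Nr0b2 (27 reads) with 848 CPM of Cyp7a1 and 927 CPM of Cyp8b1. Without it, r in B6 was −0.34 and −0.44 (adjusted permutation p = 0.151 and 0.121) and rho −0.32 and −0.39 (adjusted permutation p = 0.184 for each), so that the values stayed negative but r no longer passed. The 24 strain means gave an r of −0.60 for Cyp7a1 but 0.03 for Cyp8b1, as a description. After the surrogate variables were removed, the within-strain r was −0.50 for Cyp7a1 and −0.24 for Cyp8b1 (adjusted permutation p = 2e-05 and 0.00527). The 12 clock genes had an r between −0.20 and 0.23 with Cyp7a1, between −0.30 and 0.14 with Cyp8b1 and between −0.16 and 0.28 with Nr0b2 within strains, and their part was not tested.

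**Figure D4:**
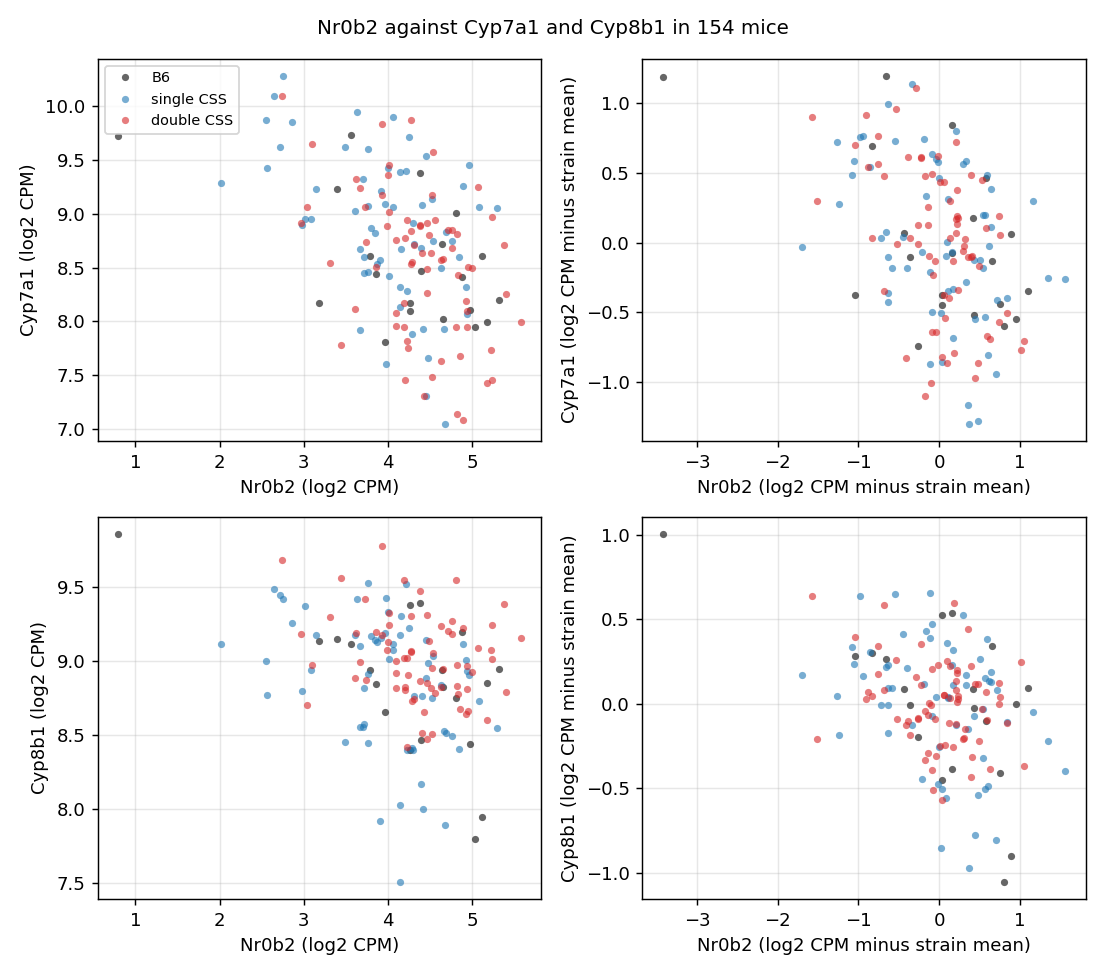
Nr0b2 (x axes) against Cyp7a1 (top) and Cyp8b1 (bottom) in every mouse, as log2 CPM (left) and as log2 CPM minus the strain mean (right), with B6 black, single CSSs blue and double CSSs red. Points fall from left to right, with a Pearson's r of −0.48 and −0.44 for Cyp7a1 and −0.31 and −0.39 for Cyp8b1, and 1 B6 mouse lies far to the left.

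Among themselves the 9 genes varied in a pattern with opposite ends. The following values are Pearson's r of log2 CPM within strains over all mice, given as descriptions. Of the 36 pairs, 28 were positive and 8 negative, with a median of 0.27. The closest were Slc10a1 with Slc27a5 (0.65) and Cyp7a1 with Nr1h4 (0.64), and Cyp27a1 with Slc27a5 had 0.55. The enzymes Cyp7a1 and Cyp8b1 had 0.42, and Abcb11 and Nr0b2 had 0.41. The 5 pairs below −0.3 each joined Nr0b2 or Abcb11 with Cyp7a1, Cyp8b1 or Nr1h4. They were Cyp7a1 with Nr0b2 (−0.44), Cyp8b1 with Nr0b2 (−0.39), Cyp7a1 with Abcb11 (−0.38), Nr0b2 with Nr1h4 (−0.33) and Cyp8b1 with Abcb11 (−0.31). With the surrogate variables removed, these 5 pairs had −0.50, −0.24, −0.33, −0.30 and −0.29, and Slc10a1 with Slc27a5 had 0.58. Of the other positive pairs named, Cyp27a1 with Slc27a5 fell to 0.34 and Cyp7a1 with Nr1h4 to 0.58. Cyp7a1 with Cyp8b1 had 0.48 and Abcb11 with Nr0b2 had 0.47.

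**Figure D5:**
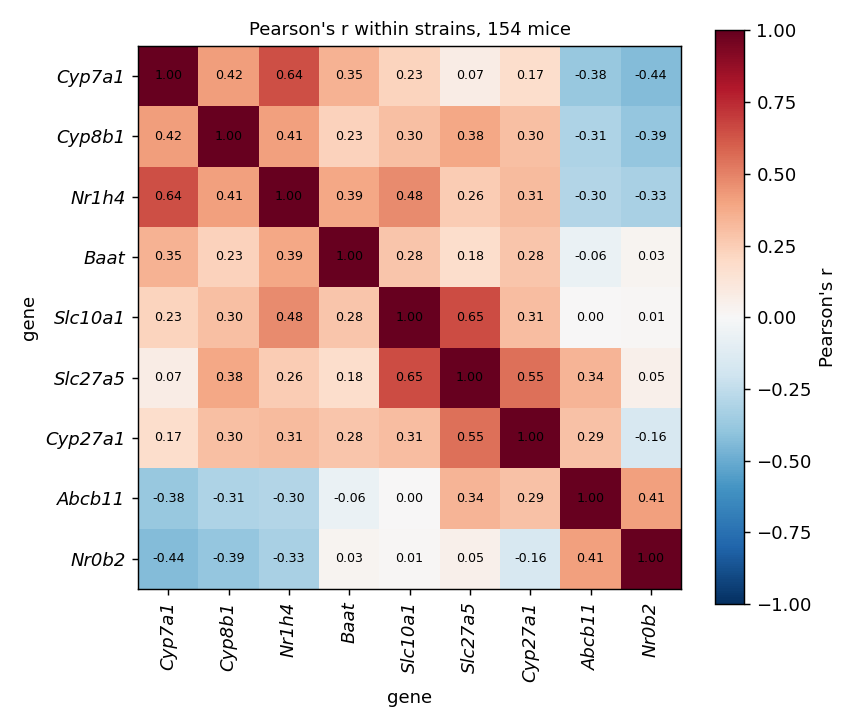
Pearson's r of log2 CPM within strains (colour and number) for each pair of the 9 genes (both axes), over all mice. Abcb11 and Nr0b2, at the end of each axis, are positive with each other (0.41) and negative with Cyp7a1, Cyp8b1 and Nr1h4.

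Outside the set, 7762 genes with a mean log2 CPM of at least 3 were compared with Cyp7a1, Cyp8b1 and Nr0b2 by the same within-strain r. For Cyp7a1, genes among the most alike were Mrpl15, a mitochondrial ribosomal protein gene (0.49), and the kinase gene Sbk1 (0.49). The most opposed were Abcg8, a subunit of the canalicular sterol exporter (−0.49), and the growth factor receptor gene Fgfr2 (−0.49). Cyp8b1 had closer neighbours, with 0.75 for the galectin gene Lgals8, 0.69 for the lipase gene Daglb and 0.69 for Spryd3. It was most opposed to the iron exporter gene Slc40a1 (−0.64) and to Abcg5, the partner of Abcg8 (−0.60). Nr0b2 was most like Ocln, which encodes the tight junction protein occludin (0.53), the small Maf transcription factor gene Mafg (0.52) and the phosphatase gene Dusp6 (0.51). It was most opposed to Ciapin1 (−0.50) and the oxysterol-binding protein gene Osbpl11 (−0.50).

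The other genes of the pathway were read from lists by role, with the values of 3 named genes for each list. The lists were chosen with earlier results of these data known, so that their shares of calls are no independent comparison with all genes. Of 12 other synthesis enzymes in the table, 9 had a main effect that passed, with 11 higher and 10 lower calls in 96 tests (21.9%, against 11.1% of all). Hsd3b7, which acts after Cyp7a1, had its lowest mean in B6 itself (257 ± 37.5 CPM, SD, n = 20). It rose in 6 of 8 single CSSs, from 0.19 (SE 0.07, edgeR adjusted p = 0.0379) in A14 to 0.46 (SE 0.07, edgeR adjusted p = 6.11e-06) in A10. Amacr, a racemase of side chain oxidation, fell in A14 (−0.20, SE 0.06, edgeR adjusted p = 0.0133) and A8 (−0.20, SE 0.07, edgeR adjusted p = 0.0135). Cyp7b1, an oxysterol hydroxylase of the alternative pathway, rose in A3, A17, A4 and A8, by 0.85 to 1.29, and had a negative A14:A8 interaction of −1.62 (SE 0.58, edgeR adjusted p = 0.0217). B6 mice had 123 ± 78.4 CPM of Cyp7b1 (SD, n = 20). Cyp7b1 lies on chromosome 3, so that A3 mice carry an A/J copy of it. Its A3 change was 0.85 (SE 0.30, edgeR adjusted p = 0.0453). The interactions of these 12 genes passed 12 times in 180 tests (6.67%, against 5.96% of all), 10 positive and 2 negative. Without surrogate variables the main effects split into 6 higher and 15 lower. With 10 of them, only 3 higher and 3 lower main effects and 1 interaction of these enzymes passed.

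The 12 other transporters had 7 higher and 7 lower main effects in 96 tests (14.6%, against 11.1% of all), which were 6 and 12 without surrogate variables and 8 and 3 with 10. Abcc3, a basolateral exporter, had 94.2 ± 15.8 CPM (SD, n = 8) in A8 against 151 ± 46.3 CPM (SD, n = 20) in B6, a log2 fold change of −0.40 (SE 0.16, edgeR adjusted p = 0.0422). Its A14:A8 interaction was 1.13 (SE 0.25, edgeR adjusted p = 0.000117). The uptake carrier Slco2b1 fell in A8 as well (−0.39, SE 0.08, edgeR adjusted p = 4.83e-05), with a positive A14:A8 interaction of 0.50 (SE 0.13, edgeR adjusted p = 0.000813). Slco1a1, another uptake carrier, moved opposite to Slc10a1 in A8 and A14, with main effects of 0.97 (SE 0.19, edgeR adjusted p = 3.29e-05) and 0.87 (SE 0.18, edgeR adjusted p = 9.62e-05). It also rose in A4 (0.50, SE 0.18, edgeR adjusted p = 0.0455). In A17 it rose by 0.63 (SE 0.17, edgeR adjusted p = 0.0325), where Slc10a1 had 0.01 (SE 0.09). Its A14:A8 interaction was −2.07 (SE 0.32, edgeR adjusted p = 6.01e-08). Negative interactions also passed in A6:A8 and A17:A8, and in A14:A4 and A14:A5, where Slc10a1 had no call. Of the 18 interactions of these transporters that passed in 180 tests (10%, against 5.96% of all), 10 were positive and 8 negative. They were 25 and 7 without surrogate variables and 3 and 5 with 10.

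Among the 10 other regulators, the calls made with 5 surrogate variables had 1 direction in each kind of effect. All 19 main effects that passed in 80 tests (23.8%, against 11.1% of all, in 6 genes) were lower than B6, and all 22 interactions that passed in 150 tests (14.7%, against 5.96% of all, in 5 genes) were positive. With DESeq2's size factors these were 19 and 20 in the same directions, and without surrogate variables 1 higher main effect and 1 negative interaction appeared. With 10 surrogate variables, 5 main effects (all lower) and 5 interactions (all positive) of the regulators passed, and their median interaction was 0.04. The median main effect of the list was −0.09 and the median interaction 0.15, against −0.0011 and 0.0051 for all genes. Of the 19 lower calls, Nr1i2 gave 7 and Hnf4a 5. The tests share the B6 mice and single CSSs, and the list was chosen with earlier results known. Klb, the co-receptor of FGFR4, fell in A14, A4 and A8, most in A8 (−0.42, SE 0.08, edgeR adjusted p = 8.04e-06), with an A14:A8 interaction of 0.78 (SE 0.12, edgeR adjusted p = 7.15e-08). Nr1i2, the xenobiotic receptor PXR, fell in 7 of 8 single CSSs, most in A8 (−0.51, SE 0.09, edgeR adjusted p = 1.93e-06). Nr5a2, the factor through which SHP is known to act, fell in A14 (−0.23, SE 0.05, edgeR adjusted p = 0.000422) and A8 (−0.19, SE 0.06, edgeR adjusted p = 0.00477), and had positive interactions in A6:A8, A14:A8 and A17:A8 of 0.23, 0.46 and 0.31.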

How the data were processed

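Total RNA of liver was made into stranded libraries and sequenced with single-end reads. The authors used TopHat2 to align reads to mm10 with GENCODE annotation, aligned the reads left over to an A/J genome built for this purpose, and assigned reads to genes with HTSeq. Raw gene counts were deposited, without normalization. The 9 genes and the lists were chosen with earlier results of these data known. Here, libraries were normalized with TMM in edgeR (4.0.16, R 4.3.3) and 5 surrogate variables estimated with svaseq (sva 3.50.0). The quasi-likelihood F-test of edgeR (legacy=TRUE) was run over 13289 genes and all mice with 8 main effects and 15 interactions. P-values were adjusted by Benjamini-Hochberg for each effect on its own, separately for genes on and off the substituted chromosomes, at an FDR of 0.05, and over all genes for joint tests. SE is the absolute log2 fold change over the square root of F. The log2 CPM used a prior count of 2. Additive levels come from strain means of log2 CPM, without surrogate variables, and need not match the fitted interaction. Correlations were tested with 100000 permutations and adjusted over both pairs.

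Genes named beside the 9 are the 3 of each list with the smallest joint p, and the 3 most positively and 2 most negatively correlated with Cyp7a1, Cyp8b1 and Nr0b2. One gene that this rule names is not reported here. Motifs were searched in the 250 bases before each RefSeq start. Alternatives were 0 or 10 surrogate variables, DESeq2 (1.42.0) size factors or Wald test, keeping genes counted 15 times or more in 75% of mice or more, legacy=FALSE, adjustment over all genes, and leaving out mice. When double CSS mice were left out one by one, the surrogate variables and dispersions of all mice were kept. The fit without the mouse with few Y-linked counts estimated both anew, so that calls in strains without that mouse could change too. On simulated counts of 13289 genes, 45 of 50 genes with a log2 change of 0.5 and 49 of 50 with 1 were recovered for A8, and 21 and 48 of 50 for A14:A8. The simulated counts held no hidden sources of variation and no other strain differences, and the changed genes had a mean count of at least 50. These rates therefore do not measure how reliable the calls above are. Flow cell, litter and hour of collection are not given in the sources used here. A mouse whose label lacks F1 was grouped with (B6.A5 X B6.A3)F1.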

Additional observations from a re-analysis of the deposited data

Results flagged for a closer look

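In 12 of the 198 groups of 4 to 8 mice of a strain tested, 1 mouse of a gene stood apart from the others of its strain by Dixon's criterion, which chance meets in about 1 of 20 groups. Replicate 1 of (B6.A4 X B6)F1 was low in 3 genes, with 275 CPM against 412.2 to 585.8 CPM for Slc10a1, 101 CPM against 122.1 to 142 CPM for Nr1h4 and 225 CPM against 302 to 371 CPM for Baat. Replicate 2 of (B6 X B6.A17)F1 was low in Slc10a1 (463.5 CPM against 555 to 635 CPM) and Slc27a5 (539 CPM against 787 to 984 CPM). The mouse of (B6.A4 X B6.A14)F1 with few Y-linked counts, replicate 3, was low in Baat (240.8 CPM against 316 to 353 CPM). Nr0b2 was low in replicate 4 of (B6.A5 X B6.A17)F1 (7.68 CPM against 14.4 to 18.4 CPM) and replicate 4 of (B6.A10 X B6.A17)F1 (8.48 CPM against 18.2 to 21.1 CPM). Nr1h4 was low in replicate 4 of (B6 X B6.A6)F1 (109 CPM against 130.1 to 147 CPM), and Cyp27a1 in replicate 2 of (B6.A5 X B6.A3)F1 (322 CPM against 426 to 465 CPM). High values were Cyp7a1 in replicate 5 of (B6.A8 X B6)F1 (789 CPM against 280.3 to 455 CPM) and Slc27a5 in replicate 3 of (B6.A10 X B6.A14)F1 (1014 CPM against 821 to 869 CPM).

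In 10 interactions the effect of a chromosome differed with the other chromosome, as tested by the interaction term in edgeR. For Slc10a1 these were A14:A8 (1.13, adjusted p = 6.34e-10), A17:A8 (0.53, adjusted p = 0.0144) and A6:A8 (0.41, adjusted p = 0.0242). Slc27a5 had A14:A8 (0.88, adjusted p = 1.14e-10), A6:A8 (0.46, adjusted p = 0.000431), A17:A8 (0.43, adjusted p = 0.00756), A14:A5 (0.38, adjusted p = 0.0312) and A3:A8 (0.37, adjusted p = 0.037). For Nr0b2 they were A14:A10 (1.64, adjusted p = 0.0281) and A14:A8 (1.21, adjusted p = 0.034). When single mice of a cross were left out, the Nr0b2 call stayed in 4 of 5 cases in A14:A10 and 3 of 5 in A14:A8. The call stayed in 1 of 3 cases for Slc27a5 in A3:A8, 2 of 5 for Slc27a5 in A14:A5 and 4 of 6 for Slc10a1 in A6:A8. The remaining calls stayed in every case. With 10 surrogate variables, only the A14:A8 calls of Slc10a1 and Slc27a5 stayed.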

How the results depend on the processing

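None of the 21 effects that passed changed sign under the alternatives run. All 21 passed with DESeq2's size factors, with legacy=FALSE and with adjustment over all genes of an effect, and 20 in DESeq2's Wald test. The surrogate variables mattered most. Without them, 7 of the 21 lost the call and the interactions that passed rose from 10 to 17, of which 9 were shared. With 10 of them, 12 lost the call, and 4 interactions passed, of which 2 were shared (Slc10a1 and Slc27a5 in A14:A8). The main effects numbered 9 and 11 in these settings, with 5 and 7 of the 11 shared. The stricter count filter lost 6 of the 21. The genes past the joint test of strains were 6 without surrogate variables, 5 with 10 and 7 otherwise, and the joint test of interactions passed for 3 genes in each of these fits. When the 71 double CSS mice were left out one by one, 9 to 11 interactions passed. Calls were gained this way for Cyp7a1 in A14:A4 without replicate 1 (adjusted p = 0.0443), Nr0b2 in A14:A5 without replicate 3 (0.0211), Nr1h4 in A14:A8 without replicate 3 (0.0468) and Baat in A6:A8 without replicate 1 (0.0444). The following were chosen after seeing the data. Leaving out the mouse with few Y-linked counts lost 4 of the 21 (Nr0b2 in A14, Slc10a1 in A4, Slc27a5 in A3:A8 and in A14:A5). In that fit the surrogate variables and dispersions were also estimated anew. In B6 without the mouse with the lowest Nr0b2 (n = 19), r was −0.342 with Cyp7a1 (adjusted permutation p = 0.151) and −0.438 with Cyp8b1 (adjusted permutation p = 0.121). Leaving out the mice of A6:A8 was also added then. The cause of these changes was not tested. No paired analysis was possible because the replicate numbers only follow the order of the samples and join no mice across strains. At these depths Nr0b2, with as few as 27 reads in a mouse, is the least precise of the 9, and double CSSs of 3 to 6 mice limit the interactions.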
